A study of Homo sapiens with 183 samples.

Results

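The 10 kallikrein-related peptidase genes KLK1, KLK5, KLK6, KLK7, KLK8, KLK10, KLK11, KLK12, KLK13 and KLK14 were taken by name from the expression tables, as 10 of the 19875 gene names measured in 183 RNA-sequencing libraries of 9 human cancer cell lines. After knockout of KLF5, KLK10 fell in 8 of 8 experiments in 5 pancreatic cancer lines, in which 1.00% to 13.6% of all genes were called lower. KLK13 was tested only in T3M-4 and BxPC-3, whose controls express it, and fell in 4 of 4 experiments. In BxPC-3 experiment 1 its mean after the knockout was under 1 TPM, so it was tested through the other libraries. KLK11 fell in T3M-4, BxPC-3 and CFPAC-1 and was not called in AsPC-1 or SUIT-2. Its change in either basal-like line differed from that in AsPC-1 in a direct test of 1 experiment per line, where line and experiment cannot be told apart. That test was not made for CFPAC-1 or SUIT-2. KLK6 fell in 1 of 2 AsPC-1 experiments and rose in 1 of 2 T3M-4 experiments. Knockout of CHD4 in AsPC-1 raised 7 of the 8 members tested there, beside 23.3% of all genes. KLK13, 1 of these 7, was tested only because the libraries labelled as knockout were high in it. CHD4 mRNA did not fall in those libraries.

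The knockouts were made in CFPAC-1, BxPC-3, T3M-4, SUIT-2 and AsPC-1, pancreatic ductal adenocarcinoma lines that stably express Cas9. RNA was taken on day 5 after lentiviral delivery of guide RNA. The study names AsPC-1 and SUIT-2 classical and T3M-4 and BxPC-3 basal-like. The guides target KLF5, an epithelial zinc-finger transcription factor; RUVBL1 or RUVBL2, AAA+ ATPases that work as a complex; CDK1, the mitotic kinase; Rpa3, a subunit of the single-strand DNA binding protein RPA; SERPINB5, the serpin maspin; or CHD4, a chromatin remodelling ATPase; sgRosa is the control guide of every line and experiment. AsPC-1 and T3M-4 stably carrying the empty vector, RUVBL1_A62T or RUVBL2_dF109 received CB-6644, an inhibitor of the RUVBL1/2 complex, or DMSO for 24 h, with 3 CB-6644 libraries and 1 DMSO library per vector. T84 (colorectal), A375 (melanoma), H1048 (small cell lung cancer) and RH30 (alveolar rhabdomyosarcoma) received CB-6644 or DMSO for 24 h, in 4 libraries each. The knockout cells are selected bulk populations, the labels do not name the guide of each library, and they do not say whether replicates are separate cultures, so a p-value here measures the spread between libraries. Experiment 1 holds sgKLF5 in the 5 pancreatic lines, with the other guides of CFPAC-1 and sgRpa3 in T3M-4 and BxPC-3. Experiment 2 holds sgRUVBL1 and sgSERPINB5 in AsPC-1, and sgKLF5, sgRUVBL1, sgRUVBL2, sgCDK1 and sgRpa3 in T3M-4 and BxPC-3. Experiment 3 holds the same 5 guides in AsPC-1, and the CHD4 knockout has its own 4 sgRosa libraries.

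Kallikrein-related peptidases are secreted serine proteases, made as inactive proenzymes and switched on when another protease removes a short propeptide. KLK1, the tissue kallikrein, releases a kinin from kininogen. KLK5, KLK7 and KLK14 act in a cascade in the outer skin, where they cut the desmosomal proteins that hold cells together, and SPINK5 restrains them. KLK6 and KLK8 are known from brain as well as epithelium, and several trypsin-like members can cut and activate the receptor PAR2, the product of F2RL1.

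The 15 KLK genes lie side by side on chromosome 19 between 50819146 and 51084245 (hg38, GENCODE annotation), a stretch of 265.1 kb, and all 10 members are transcribed from the minus strand. In chromosome order they are KLK1 (50819146 to 50823787), KLK5 (50943303 to 50953093), KLK6 (50958631 to 50969673), KLK7 (50976468 to 50984099), KLK8 (50996007 to 51002711), KLK10 (51012739 to 51020175), KLK11 (51022216 to 51028039), KLK12 (51029092 to 51035230), KLK13 (51055626 to 51065114) and KLK14 (51077495 to 51084245). KLK10, KLK11, KLK12 and KLK13 are therefore next to each other, and KLK6 lies on the far side of KLK7 and KLK8. KLF proteins are known to bind CACCC boxes and GC-rich sites. RefSeq promoters (GRCh38.p14, 250 bases before to 50 after the start) were matched for 8 of the 10 members; KLK1 and KLK8 had no entry. Shown are KLK10, KLK11 and KLK13, which fell after KLF5 knockout, and KLK6, which did not move in 1 direction. Each runs 5′ to 3′ on the minus strand, with CACCC and CCGCCC, or their reverse complements GGGTG and GGGCGG, in capitals.
KLK10, chr19:51019660-51019959: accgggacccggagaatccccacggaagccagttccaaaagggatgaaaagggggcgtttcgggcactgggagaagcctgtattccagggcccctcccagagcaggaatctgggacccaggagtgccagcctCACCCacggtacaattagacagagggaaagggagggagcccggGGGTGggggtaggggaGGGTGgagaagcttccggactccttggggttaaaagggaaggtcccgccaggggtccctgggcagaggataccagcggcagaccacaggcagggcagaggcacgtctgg
KLK11, chr19:51026567-51026866: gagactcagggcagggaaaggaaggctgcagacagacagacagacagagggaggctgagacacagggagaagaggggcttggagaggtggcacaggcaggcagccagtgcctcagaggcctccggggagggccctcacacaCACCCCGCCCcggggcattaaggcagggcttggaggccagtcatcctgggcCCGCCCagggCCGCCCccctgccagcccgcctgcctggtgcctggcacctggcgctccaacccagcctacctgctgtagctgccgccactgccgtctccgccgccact
KLK13, chr19:51065043-51065342: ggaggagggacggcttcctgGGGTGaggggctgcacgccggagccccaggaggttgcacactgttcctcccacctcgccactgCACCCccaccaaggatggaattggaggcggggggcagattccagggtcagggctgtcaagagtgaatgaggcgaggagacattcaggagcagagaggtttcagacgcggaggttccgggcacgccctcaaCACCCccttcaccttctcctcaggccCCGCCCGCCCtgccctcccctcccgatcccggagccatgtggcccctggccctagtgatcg
KLK6, chr19:50969542-50969841: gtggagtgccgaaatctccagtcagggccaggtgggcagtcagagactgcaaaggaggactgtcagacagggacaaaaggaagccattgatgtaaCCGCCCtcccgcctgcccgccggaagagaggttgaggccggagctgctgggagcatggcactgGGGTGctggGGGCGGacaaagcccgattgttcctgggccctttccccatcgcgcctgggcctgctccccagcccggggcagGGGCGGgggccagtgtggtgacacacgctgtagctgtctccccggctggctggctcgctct
Over both strands, the KLK10 window held 3 CACCC and 0 CCGCCC matches, that of KLK11 held 1 and 3, that of KLK13 held 3 and 2, and that of KLK6 held 1 and 3. In KLK11 a CACCC and a CCGCCC match share bases, and in KLK13 a pair of CCGCCC matches do. Of 35116 promoters of this length, 59.9% held CACCC and 45.0% held CCGCCC, so holding a match does not set the 4 genes apart. Whether the number of matches per window does was not tested. The GC content of the 4 windows was 63.7%, 69.3%, 66.7% and 66.3%, beside a median of 58.7% over all promoters.

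Levels are given in TPM, a measure of transcript abundance scaled for transcript length and library total, so members can be compared with each other. Each library sums to 1000000 TPM over all genes, and 11292 to 14024 genes per library were at 1 TPM or more; the read depth is unknown. Differences are log2 fold changes of TPM + 1, treated minus control, given with the standard error (SE) from limma. A pseudocount of 1 understates the change of low genes. A change counts as called when the p-value, adjusted by Benjamini-Hochberg over all genes that averaged 1 TPM or more in that fit, is under 0.05. In bulk RNA, fewer cells that express a gene and less RNA per cell cannot be told apart.

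Several libraries stand apart or go against their labels. CFPAC-1 sgRosa replicate 2 was nearer to the sgKLF5 libraries than to the other sgRosa libraries at 304 of 366 genes that separate them (83.1%), so CFPAC-1 values are given with and without it. T3M-4 sgKLF5 replicate 2 of experiment 1 also stood apart, with a mean correlation of 0.959 to its own group, still above the 0.931 to sgRpa3. Separately, 23 of 183 libraries correlated better with another group than with their own. They included every CFPAC-1 sgRosa library, sgSERPINB5 libraries nearest to sgRosa, and sgRUVBL2 libraries nearest to sgRUVBL1. KLF5 mRNA is no check of its knockout: it fell only in CFPAC-1 (-0.41, adjusted p = 0.00852) and rose in T3M-4 experiment 2 (0.78) and AsPC-1 experiment 1 (0.53). RUVBL1 fell by 1.14 to 1.87 and RUVBL2 by 1.24 to 1.76 on the log2 scale in every knockout of each, and SERPINB5 fell by 1.35, whereas CHD4 mRNA was 66.8 TPM in controls and 82.7 in the libraries labelled sgCHD4. In CFPAC-1 the libraries labelled sgCDK1 had 200 TPM of CDK1 beside 215 in sgRosa, and those labelled sgRpa3 had 86.5 TPM of CDK1, so both labels are treated as uncertain. KRT19, a ductal keratin, had a median of 1336 to 4397 TPM in controls of the 5 pancreatic lines and T84, and was 0.981 TPM in H1048, which had EPCAM at 305, KRT8 at 498 and KRT18 at 628 TPM. The melanosome genes MLANA and PMEL were near 0 in A375, and the tuft-cell channel TRPM5 was near 0 in H1048, beside high SOX10 (236 TPM) and POU2F3 (476 TPM).

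Baseline levels come from sgRosa or DMSO libraries, which in AsPC-1 and T3M-4 include DMSO libraries of cells carrying RUVBL1_A62T or RUVBL2_dF109. There KLK10 had the highest median of the members in each of the 5 pancreatic lines and T84. KLK8 was above KLK10 in the T3M-4 DMSO libraries with the empty vector (236 beside 235 TPM) and RUVBL1_A62T (309 beside 298), and KLK6 in CFPAC-1 sgRosa replicate 2 (147 beside 69.7). In 17 AsPC-1 control libraries (sgRosa or DMSO) KLK10 ranged from 371 to 682 TPM with a median of 517, above every library of the other lines except part of T3M-4. The medians of CFPAC-1 (316 TPM, range 69.7 to 334, n = 4) and T3M-4 (298, range 198 to 402, n = 9) did not differ beyond their spread. BxPC-3 (151, range 126 to 191, n = 6), T84 (120, range 118 to 122, n = 4) and SUIT-2 (90.6, range 59.0 to 111, n = 4) followed in that order without overlap; the lowest CFPAC-1 library is the sgRosa replicate 2 named above. KLK10 was at most 0.849 TPM in every H1048, A375 and RH30 control. KLK10 made up a median of 69.6% of the summed level of the 10 members in AsPC-1 and 40.0% in T3M-4, the line in which all 10 had a median of at least 1 TPM.

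**Figure D1:**
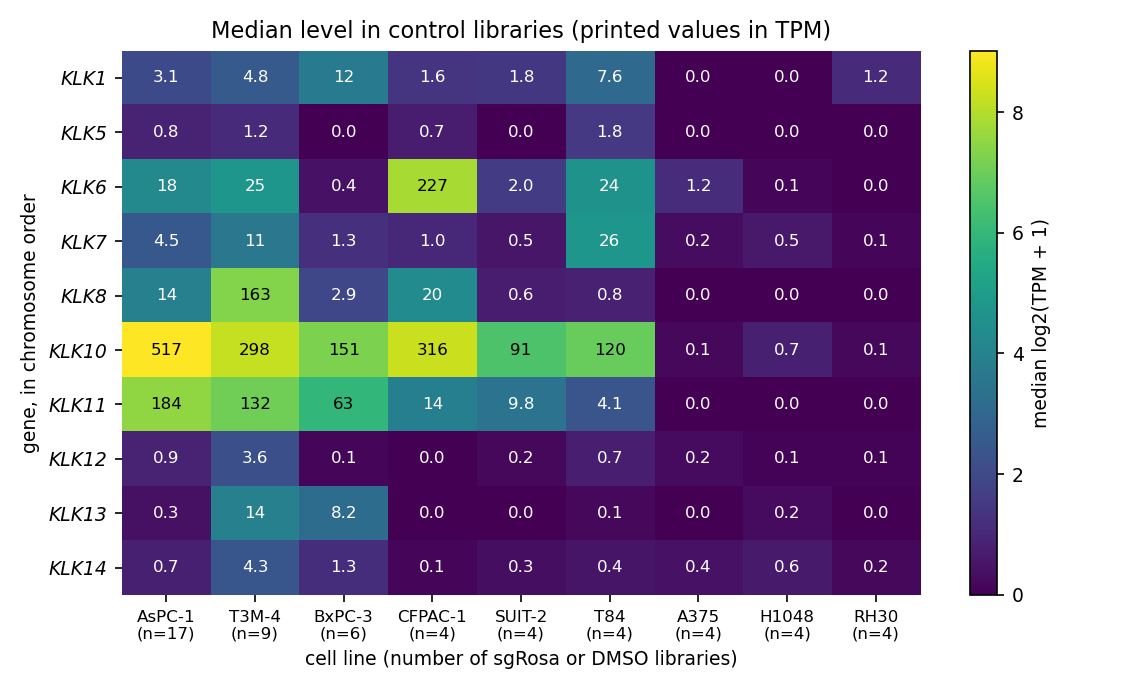
Median TPM of each member in the sgRosa or DMSO libraries of each line, printed in the cell and coloured by median log2(TPM + 1). KLK10 is high in the pancreatic lines and T84, from 90.6 TPM in SUIT-2 to 517 in AsPC-1, KLK6 leads in CFPAC-1 after KLK10, and KLK8 in T3M-4.

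The other members divided the lines differently. KLK11, a trypsin-like member, was highest in AsPC-1 (median 184 TPM) and T3M-4 (132), whose ranges overlapped, then BxPC-3 (62.5), and it was listed at 0 in every A375, H1048 and RH30 control. KLK6 had a median of 227 TPM in CFPAC-1 (range 147 to 265), far above T3M-4 (25.4), T84 (23.6) and AsPC-1 (17.8), and was 0.361 in BxPC-3. KLK8 was 163 TPM in T3M-4 (range 124 to 332) with every library above every other line, next to 19.6 in CFPAC-1 and 14.1 in AsPC-1. KLK13 was 14.3 TPM in T3M-4 and 8.23 in BxPC-3, and at most 0.708 in AsPC-1. The skin protease KLK7 was highest in T84, at 25.9 TPM (range 25.3 to 28.2). KLK1 was led by BxPC-3 (12.1), T84 (7.58) and T3M-4 (4.80), with overlapping neighbours. KLK5, KLK12 and KLK14 stayed under 5 TPM at the median in every line, highest at 1.80 in T84, 3.58 in T3M-4 and 4.29 in T3M-4. Levels of 1 line also varied between experiments: KLK10 in T3M-4 sgRosa was 207 and 198 TPM in experiment 1, and 402, 385, 381 and 295 in experiment 2, so each knockout was compared with controls of its own experiment.

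After KLF5 knockout, 60 member tests over 8 experiments gave 28 lower and 3 higher calls. KLK10, first described as a normal epithelial cell-specific gene, fell in all 8. In AsPC-1 experiment 3 its TPM were 619, 675, 682 and 667 with sgRosa and 165, 235, 253 and 214 with sgKLF5 (-1.62, SE 0.13, adjusted p = 1.43e-08), a ratio of mean TPM of 0.328. In AsPC-1 experiment 1, sgRosa gave 517 and 564 TPM and the 6 sgKLF5 libraries ranged from 183 to 220 (-1.40, SE 0.07, adjusted p = 5.38e-07). No sgKLF5 library reached the lowest control in either experiment. SUIT-2 had 59.0, 71.7, 110 and 111 TPM in controls and 17.2, 13.0, 19.1 and 21.3 with sgKLF5 (-2.22, SE 0.24, adjusted p = 0.00157). In T3M-4 experiment 1 the controls above fell to 57.5, 60.4, 54.6 and 53.6 TPM (-1.82, SE 0.17, adjusted p = 0.00129). T3M-4 experiment 2 gave 91.0, 109, 115 and 123 TPM with sgKLF5 (-1.73, SE 0.13, adjusted p = 1.12e-08). Again the groups did not overlap. BxPC-3 showed both the largest and the smallest fold change: experiment 1 went from 135 and 126 TPM to 12.2, 9.48, 11.6 and 9.62 (-3.49, SE 0.14, adjusted p = 4.12e-07). In BxPC-3 experiment 2, controls at 152, 149, 191 and 183 TPM compared with 56.6, 71.5, 85.4 and 70.5 (-1.24, SE 0.14, adjusted p = 2.02e-06). The fibroblast genes COL1A1 (mean 12.6 to 57.9 TPM) and COL1A2 (5.97 to 33.6) rose with sgKLF5 in BxPC-3 experiment 1. In experiment 2 their means were 4.53 and 3.54 TPM (COL1A1) and 0.0587 and 0.0963 (COL1A2) with sgRosa and sgKLF5. Their part in the KLK changes was not tested.

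The share of all genes called lower, against which these counts are read, was 8.81% and 12.3% in AsPC-1 experiments 1 and 3, 1.00% in SUIT-2, 13.0% in CFPAC-1, 2.46% and 11.2% in T3M-4 experiments 1 and 2, and 8.10% and 13.6% in BxPC-3 experiments 1 and 2. Members called lower were 2 of 7 tested and 4 of 8 in AsPC-1 experiments 1 and 3, 1 of 4 in SUIT-2, 3 of 7 in CFPAC-1, 4 of 10 and 5 of 10 in T3M-4, and 4 of 6 and 5 of 8 in BxPC-3. The 3 higher calls were KLK7 in AsPC-1 experiment 1 and KLK1 and KLK6 in T3M-4 experiment 1, where 17.1% and 3.26% of all genes were called higher.

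**Figure D2:**
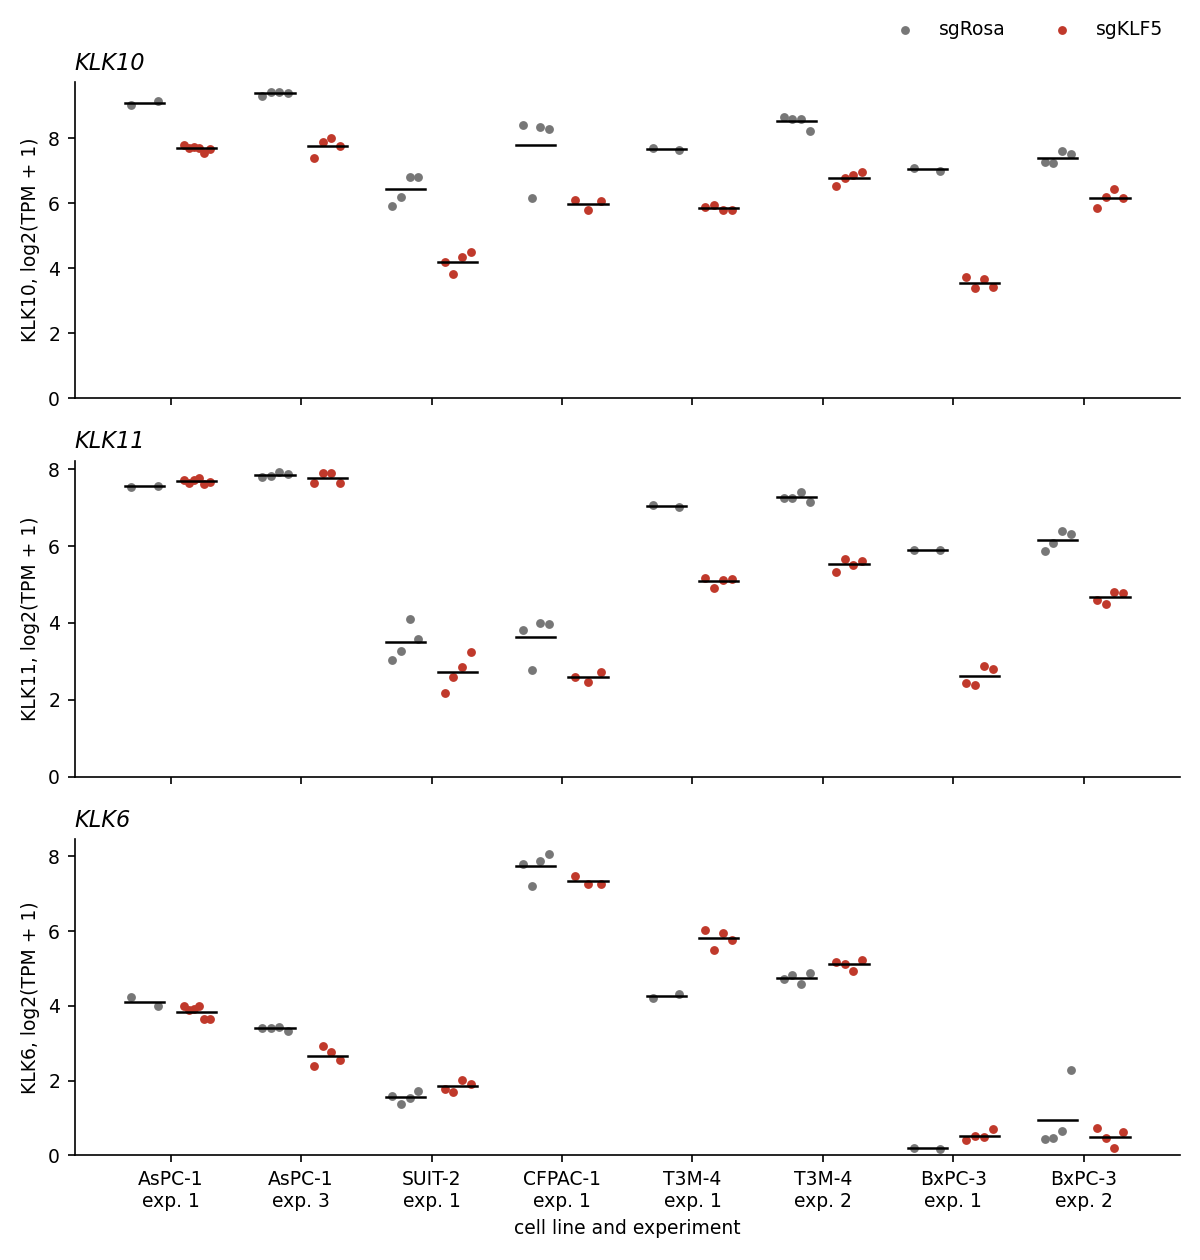
Level of KLK10, KLK11 and KLK6 as log2(TPM + 1) in each sgRosa (grey) and sgKLF5 (red) library of 8 experiments, 1 point per library; black lines are group means. KLK10 is lower in all 8 comparisons, with 1 CFPAC-1 sgRosa library at 69.7 TPM near the sgKLF5 level. KLK11 is level in AsPC-1, overlaps between the groups in SUIT-2, and is lower in T3M-4, BxPC-3 and CFPAC-1. KLK6 is higher in T3M-4 experiment 1.

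KLK11, the neighbour of KLK10, divided the lines. In AsPC-1 experiment 3 it was 221, 227, 243 and 235 TPM with sgRosa and 200, 238, 238 and 197 with sgKLF5, overlapping (-0.09, SE 0.08, adjusted p = 0.456), and in experiment 1 it was 184 and 189 against 196 to 219 (0.14, adjusted p = 0.105). In T3M-4 experiment 2 it fell from 152, 152, 170 and 140 TPM to 38.8, 50.0, 44.4 and 48.1 (-1.74, SE 0.12, adjusted p = 2.43e-09). BxPC-3 experiment 2 went from 57.3, 66.2, 83.6 and 78.7 TPM to 23.3, 21.7, 27.0 and 26.6 (-1.49, SE 0.12, adjusted p = 5.8e-08). Both basal-like lines thus had every knockout library under every control, also in experiment 1 (T3M-4 -1.95, adjusted p = 0.000706; BxPC-3 -3.27, adjusted p = 1.44e-06). SUIT-2 had 7.18 to 16.2 TPM in controls and 3.56 to 8.42 with sgKLF5, which overlapped (-0.78, adjusted p = 0.231). Without SUIT-2 sgRosa replicate 1, the lowest control for KLK10, 3.19% of genes were lower, KLK10 was -2.39 (adjusted p = 0.000925) and KLK11 -0.93 (adjusted p = 0.0955).

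KLK12 and KLK13, further along the cluster, were low in most lines and fell wherever they were tested. KLK13 in T3M-4 experiment 2 was 34.8, 32.2, 43.6 and 25.6 TPM in controls and 3.4, 6.09, 5.12 and 8.63 with sgKLF5 (-2.40, SE 0.20, adjusted p = 3.04e-08). In T3M-4 experiment 1 it went from 12.8 and 11.8 TPM to 0.525 to 1.67 (-2.60, SE 0.29, adjusted p = 0.00271). BxPC-3 had 6.80 to 12 TPM of KLK13 over both control groups and at most 3.31 with sgKLF5 (-2.29 and -1.56 in experiments 1 and 2). KLK12 fell in T3M-4 (-2.24 and -0.997) and in AsPC-1 experiment 3 (-1.14, adjusted p = 0.00116), where it was 1.26 to 2.01 TPM in controls and at most 0.295 with sgKLF5. The mean of KLK12 with sgKLF5 was under 1 TPM in all 3 tests, and that of KLK13 in BxPC-3 experiment 1, so there they passed the filter through other libraries of the fit. KLK14, a skin protease, fell in T3M-4 experiment 2 alone of 5 tests (-1.16, adjusted p = 0.00206).

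KLK6 was called in both directions, once each in 7 tests, and KLK8 was called lower in 3 of 7. KLK6 in AsPC-1 experiment 3 was 9.10 to 9.74 TPM in controls and 4.27 to 6.57 with sgKLF5 (-0.74, SE 0.13, adjusted p = 0.000268). In T3M-4 experiment 1 it rose from 17.4 and 18.9 TPM to 64.8, 44.3, 60.7 and 52.9 (1.55, SE 0.21, adjusted p = 0.00681), and in experiment 2 controls of 23.2 to 28.5 compared with 29.7 to 36.6 without a call (0.36, adjusted p = 0.16). Each group pair was free of overlap. KLK8 fell in AsPC-1 experiment 1 (-0.58, adjusted p = 0.0208) and BxPC-3 experiment 2 (-1.60, adjusted p = 0.0147), and in AsPC-1 experiment 3 it was -0.89 (adjusted p = 0.0645). KLK1 fell in AsPC-1 experiment 3 (-0.96) and in BxPC-3 (-0.87 and -1.86), and rose in T3M-4 experiment 1 from 0.925 and 0.715 TPM to 2.66 to 3.89 (1.16, adjusted p = 0.0183). In T3M-4 experiment 2 KLK1 was not called, but was lower under median-of-ratios scaling (-0.53, adjusted p = 0.0391). KLK7 rose in AsPC-1 experiment 1 (0.46, adjusted p = 0.0432), a call lost under median-of-ratios scaling (adjusted p = 0.0613). In AsPC-1 experiment 3 KLK7 was -0.45 under that scaling (adjusted p = 0.115). KLK5 was not called in 4 tests (-0.36 to 0.59). Without T3M-4 sgKLF5 replicate 2, experiment 1 called 19.4% of genes lower and 17.6% higher, KLK7 was called (1.17, adjusted p = 0.00105), and KLK10 (-1.86) and KLK6 (1.65) remained past the threshold.

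In CFPAC-1 the result rests in part on sgRosa replicate 2. KLK10 was 334, 69.7, 321 and 311 TPM in controls and 67.4, 54.0 and 66.0 with sgKLF5 (-1.81, SE 0.37, adjusted p = 0.00617), and -2.35 (adjusted p = 3.37e-10) without that library. KLK11 was -1.04 (adjusted p = 0.00735) with it and -1.33 (adjusted p = 1.18e-06) without it, and KLK8 was -0.53 (adjusted p = 0.0105) and -0.64 (adjusted p = 0.000397). Under median-of-ratios scaling KLK8 lost its call (-0.41, adjusted p = 0.0523), and the higher share of all calls went from 20.1% to 55.0%. KLK6 was called only without it, at -0.57 (adjusted p = 0.000495) against -0.40 (adjusted p = 0.0705). Without it 14.9% of all genes were called lower. Of 5 epithelial markers, the keratins KRT8, KRT18 and KRT19 fell with sgKLF5 in CFPAC-1, T3M-4 experiment 2 and BxPC-3 experiment 2, KRT8 or KRT19 fell in the other T3M-4, BxPC-3 and SUIT-2 experiments, and 0 of 5 fell in AsPC-1; their part in the KLK changes was not tested.

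The sgKLF5 effects of AsPC-1 experiment 3, T3M-4 experiment 2 and BxPC-3 experiment 2 were then compared directly, as the difference between the log2 fold changes of each pair of lines in 1 fit. Each line enters with 1 experiment, so line and experiment cannot be told apart. The SE holds only the spread between libraries. The KLK10 and KLK11 changes given above also differed between the experiments of BxPC-3. KLK11 differed by -1.65 (SE 0.16, adjusted p = 2.37e-11) between T3M-4 and AsPC-1 and by -1.40 (SE 0.16, adjusted p = 2.29e-09) between BxPC-3 and AsPC-1, and the basal-like lines differed from each other by -0.25 (SE 0.16, adjusted p = 0.241). KLK13 differed in all 3 pairs, by -2.21 (T3M-4 minus AsPC-1), -1.38 (BxPC-3 minus AsPC-1) and -0.83 (T3M-4 minus BxPC-3, adjusted p = 0.00837); its level in the AsPC-1 controls was under 1 TPM. KLK6 differed by 1.09 between T3M-4 and AsPC-1 (adjusted p = 0.013). For KLK10 the differences were -0.11 (SE 0.20), 0.38 (SE 0.20) and -0.48 (SE 0.20, adjusted p = 0.0635) in the same order, and the last was called under median-of-ratios scaling (adjusted p = 0.0381). KLK12 differed by 1.07 (BxPC-3 minus AsPC-1) and -0.92 (T3M-4 minus BxPC-3), but its BxPC-3 controls were at most 0.495 TPM. These values of KLK12, and those of KLK13 against AsPC-1, compare a line with the member against one nearly without it and are given as a description. KLK1 differed by 1.44 and KLK7 by 0.77 (both T3M-4 minus BxPC-3). Of all genes, 10.7% were called lower and 16.3% higher between T3M-4 and AsPC-1, 13.3% and 15.2% between BxPC-3 and AsPC-1, and 13.2% and 16.6% between T3M-4 and BxPC-3.

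**Figure D3:**
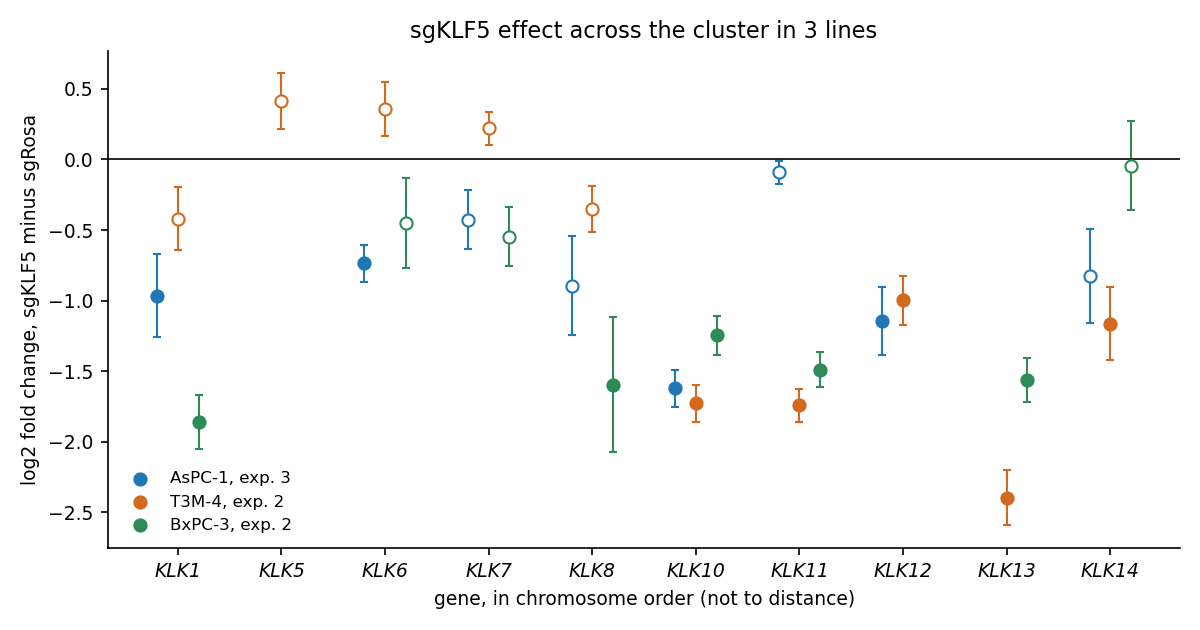
log2 fold change of TPM + 1 (sgKLF5 minus sgRosa) with its standard error for each tested member, in chromosome order, in AsPC-1 experiment 3, T3M-4 experiment 2 and BxPC-3 experiment 2; filled points are called. KLK10 is lower in all 3 lines, while KLK11 stays at -0.09 in AsPC-1 and falls to -1.74 and -1.49 in the others.

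With the settings above, the lower calls after RUVBL1 knockout were all in AsPC-1, and the difference from the other lines was not tested. Lower calls also appeared in T3M-4 under median-of-ratios scaling and in CFPAC-1 without sgRosa replicate 2, as given below. In experiment 2 KLK10 went from 388, 389, 371 and 403 TPM to 253, 273, 276 and 270 (-0.53, SE 0.04, adjusted p = 1.1e-07), KLK8 from 13.8 to 21.9 TPM to 5.28 to 8.09 (-1.34, adjusted p = 9.79e-07) and KLK6 from 23.3 to 28.9 to 8.12 to 11.7 (-1.26, adjusted p = 2.49e-07). KLK7 (-1.08) and KLK11 (-0.23) also fell, 5 of 6 tested beside 25.8% of all genes. In experiment 3, 4 of 8 fell beside 15.2% of all genes: KLK10 from 619 to 682 TPM to 256, 371, 354 and 256 (-1.11, SE 0.13, adjusted p = 1.92e-06), KLK8 (-1.17), KLK11 (-0.57) and KLK6 (-0.44). RUVBL2 knockout lowered the same 4 members in that experiment, where 11.0% of all genes fell, with KLK10 at 482, 349, 415 and 421 TPM (-0.67, SE 0.13, adjusted p = 0.000466), KLK8 at -1.003, KLK6 at -0.61 and KLK11 at -0.30. Of 5 epithelial markers, 4 fell with RUVBL1 loss in each AsPC-1 experiment and 5 with RUVBL2 loss, and their part was not tested.

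In T3M-4, RUVBL1 knockout raised KLK14 from 1.35 to 6.23 TPM to 8.50, 11.2 and 10.1 (1.3, SE 0.28, adjusted p = 0.000801) and KLK12 (0.52, adjusted p = 0.0228), beside 45.9% of all genes called higher. The median of all genes moved by 0.25 in that comparison. Under median-of-ratios scaling the higher share of all calls went from 75.9% to 46.9%, KLK12 lost its call (0.29, adjusted p = 0.19), and KLK10 became lower, at -0.58 (adjusted p = 0.00318) instead of -0.29 (adjusted p = 0.0891). KLK7, KLK11 and KLK13 were also called lower only under that scaling. RUVBL2 knockout in T3M-4 lowered KLK10 alone of 10 (-0.46, SE 0.13, adjusted p = 0.00697), where 15.2% of all genes fell. Its KLK10 levels of 301, 213, 237 and 320 TPM overlapped controls of 295 to 402. KLK13 (-0.48, adjusted p = 0.0421) and KLK7 (-0.31, adjusted p = 0.0455) were also called lower there under median-of-ratios scaling. In BxPC-3 no member of 8 was called after RUVBL1 or RUVBL2 knockout, with KLK10 at -0.06 and -0.01, beside 16.0% and 9.76% of all genes called in either direction. When scaled by median of ratios, KLK1 was called lower there after RUVBL2 knockout (-0.59, adjusted p = 0.041). In CFPAC-1, RUVBL1 knockout raised KLK11 from 5.81 to 14.9 TPM to 16.5 to 22.2 (0.69, adjusted p = 0.0121; 6.54% of genes higher), and RUVBL2 knockout called no member (12.1% of genes in either direction). Under median-of-ratios scaling KLK6 (0.46, adjusted p = 0.0213), KLK7 (0.54, adjusted p = 0.02) and KLK8 (0.46, adjusted p = 0.00992) were also called higher after RUVBL1 knockout, and the higher share of all calls went from 14.9% to 53.1%. Without sgRosa replicate 2, KLK11 was 0.40 (adjusted p = 0.0132) after RUVBL1 knockout, and KLK10 was lower after both, at -0.54 (adjusted p = 0.000628) and -0.37 (adjusted p = 0.0465) instead of 0.01 and 0.18, beside 34.2% and 7.2% of genes called lower.

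The CDK1 and RPA3 knockouts gave 14 higher and 3 lower member calls in 82 tests, and 4 higher calls come from the CFPAC-1 libraries with uncertain labels. All genes also leaned higher in T3M-4 experiment 2, with 13.0% higher and 3.85% lower for sgCDK1 and 18.4% and 6.20% for sgRpa3. The reverse held for sgRpa3 in BxPC-3 experiment 2 (9.12% and 11.6%). Fitting only the groups compared gave 8 higher and 3 lower member calls. In AsPC-1, sgCDK1 took KLK7 from 2.22 to 2.68 TPM to 13.6 and 10.3 (1.90, SE 0.25, adjusted p = 4.97e-05) and KLK6 from 9.10 to 9.74 TPM to 19.5 and 20.0 (0.98, SE 0.16, adjusted p = 0.000353), with KLK10 lower at 440 and 444 TPM (-0.58, adjusted p = 0.0166); 10.3% of genes were higher and 6.44% lower. CDK1 mRNA itself was -0.19 there (adjusted p = 0.202), so the knockout has no RNA check. In T3M-4, where CDK1 mRNA fell by 1.47, sgCDK1 raised 5 of 10 members beside 13.0% of all genes. KLK13 rose from 25.6 to 43.6 TPM to 82.6 and 71.6 (1.18, SE 0.24, adjusted p = 0.0035) and KLK12 from 2.33 to 3.29 TPM to 12.5 and 10.3 (1.67, SE 0.21, adjusted p = 0.000132). KLK14 rose by 1.12, while KLK5 (0.75) and KLK11 (0.56) lost the call under median-of-ratios scaling. These members, which fell with sgKLF5 in T3M-4 except KLK5, are thus higher with sgCDK1 of the same experiment, which shares the sgRosa libraries. In BxPC-3, sgCDK1 called no member (5.82% of genes in either direction).

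sgRpa3 lowered KLK6 (-0.84, adjusted p = 0.016) and KLK7 (-0.47, adjusted p = 0.0239) in T3M-4 experiment 2, where 6.20% of genes were lower and 18.4% higher. In BxPC-3 experiment 2 it raised KLK10 from 149 to 191 TPM to 247 and 252 (0.57, SE 0.17, adjusted p = 0.0224), KLK11 from 57.3 to 83.6 TPM to 122 and 108 (0.69, SE 0.15, adjusted p = 0.00356) and KLK7 (0.80), beside 9.12% of genes. No member was called with sgRpa3 in AsPC-1 (0.654% of genes in either direction), BxPC-3 experiment 1 (0.307%) or T3M-4 experiment 1, where limma called no gene (0%, with 189 genes at an unadjusted p under 0.05); KLK11 there was 207 and 199 TPM beside 132 and 128, and was called without sgKLF5 replicate 2, which shares that fit (0.63, adjusted p = 0.0389). The CFPAC-1 libraries labelled sgRpa3 had higher KLK6 (427 and 435 TPM, 1.02), KLK8 (37.1 and 41.7 TPM, 1.04), KLK11 (0.95) and KLK7 (0.67, adjusted p = 0.0385), beside 8.17% of genes. Without sgRosa replicate 2, KLK7 was 0.61 (adjusted p = 0.0607) and the other 3 kept their calls. KLK7 also lost its call under median-of-ratios scaling (adjusted p = 0.0743). The CFPAC-1 libraries labelled sgCDK1 called no gene by limma (0%, with 1477 genes at an unadjusted p under 0.05). SERPINB5 knockout in AsPC-1 called none of 6 members and 4 genes in all (0.0343% of genes in either direction, 802 at an unadjusted p under 0.05), with KLK10 at -0.12 (adjusted p = 0.641).

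CHD4 knockout in AsPC-1 raised 7 of 8 tested members and lowered none, beside 23.3% of all genes called higher. KLK13 passed the filter only through the sgCHD4 libraries; of the other 7 members tested, 6 rose. KLK13 changed most. It was 0, 0.157, 0.206 and 0 TPM in the controls and 26.7, 28.8, 30.5 and 30.8 in the libraries labelled sgCHD4 (4.79 on the log2 scale of TPM + 1, a value set by the pseudocount, adjusted p = 5.93e-11). These levels lie above those of every AsPC-1 control and within the range of T3M-4 controls. KLK6 rose from 25.5, 26.5, 25.5 and 25.8 TPM to 85.1, 92.3, 94.9 and 92.5 (1.78, SE 0.05, adjusted p = 4.11e-10). The skin proteases KLK5 and KLK7 rose by 1.2 and 0.84, from 1.15 to 1.78 TPM to 3.23 to 5.93 and from 5.32 to 7.74 TPM to 11.8 to 12.8. KLK10 rose from 395, 382, 389 and 389 TPM to 538, 575, 542 and 526 (0.49, SE 0.04, adjusted p = 6.73e-07), KLK11 by 0.30 and KLK1 by 0.69. KLK8, between KLK7 and KLK10 on the chromosome, was 12.5 to 17.0 TPM and 15.3 to 18.5 (0.08, SE 0.10, adjusted p = 0.546). Of the epithelial markers, EPCAM, KRT8, KRT18 and KRT19 fell and CDH1 rose, and their part was not tested. CHD4 mRNA did not fall in these libraries, so the label has no check at the RNA level.

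**Figure D4:**
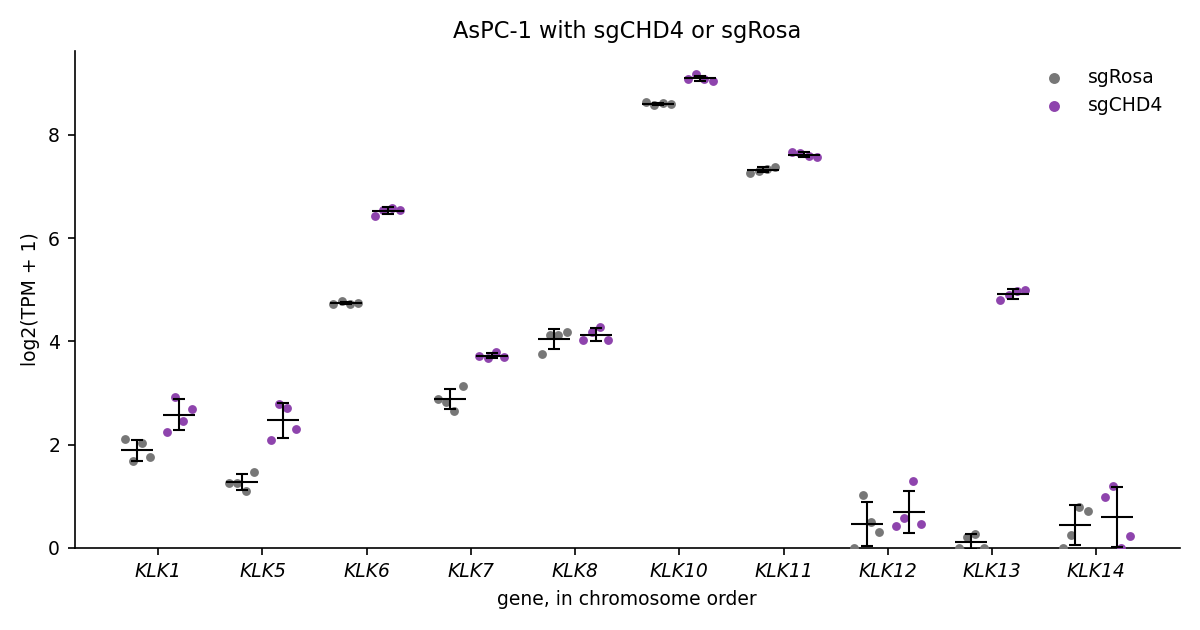
Level of each member as log2(TPM + 1) in 4 sgRosa (grey) and 4 sgCHD4 (purple) AsPC-1 libraries, 1 point each, with mean and SD. KLK13 goes from at most 0.206 TPM to 26.7 to 30.8, KLK6 from 25.5 to 26.5 TPM to 85.1 to 94.9, and KLK8 groups overlap.

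CB-6644 for 24 h lowered 10 and raised 1 of 17 members tested in cells with the empty vector. The 3 DMSO libraries, 1 per vector, served as 1 control group. In AsPC-1, KLK10 was 665, 584 and 565 TPM in DMSO with the empty vector, RUVBL1_A62T and RUVBL2_dF109, and 374, 371 and 339 in CB-6644 with the empty vector (-0.74, SE 0.06, adjusted p = 1.13e-06). KLK11 (-0.31) and KLK6 (-0.33) fell and KLK12 rose (0.30, adjusted p = 0.0274; 0.207 when scaled by median of ratios), beside 17.2% of genes lower and 47.2% higher; the higher share of calls went from 73.3% to 41.0% when scaled. Against the empty-vector DMSO library alone, KLK10 was -0.88 (adjusted p = 5.5e-06) and KLK11 -0.35, KLK7 (-0.47) and KLK8 (-0.79) were called lower, and KLK6 (-0.18, adjusted p = 0.25) and KLK12 (adjusted p = 0.0859) were not called. In T3M-4 7 of 10 members fell beside 15.2% of genes. KLK10 was 235, 298 and 370 TPM in DMSO and 137, 137 and 110 in CB-6644 (-1.21, SE 0.15, adjusted p = 0.000145), without overlap. KLK6 was 19.2 TPM in DMSO with the empty vector but 63.7 and 57.4 with the variants, so its call (14.7, 17.2 and 15.4 TPM, -1.34) rests on the vectors: against its own DMSO library it was -0.28 (adjusted p = 0.0863). Against that library KLK5 was 0.06 instead of -0.70 and KLK7 -0.05 (adjusted p = 0.834) instead of -0.53, while KLK8 (-0.39, adjusted p = 0.00349), KLK10 (-0.88, adjusted p = 0.0018), KLK11 (-0.47, adjusted p = 0.0263) and KLK13 (-0.57, adjusted p = 0.00974) were called both ways; this comparison has 1 control library, assumed to vary like the other groups.

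Fewer members were called in cells carrying a resistance variant. In AsPC-1, KLK10 in CB-6644 was 456, 455 and 453 TPM with RUVBL1_A62T (-0.41, SE 0.06, adjusted p = 0.00583) and 442, 470 and 432 with RUVBL2_dF109 (-0.43, SE 0.06, adjusted p = 0.00123). These levels lay above all empty-vector libraries in CB-6644. KLK11 fell by 0.14 and 0.12 on the log2 scale, so that 2 of 7 members were called lower in each beside 1.98% and 4.10% of genes. Against the DMSO library of its own vector KLK10 was -0.36 (adjusted p = 0.0904) with RUVBL1_A62T and -0.33 (adjusted p = 0.00594) with RUVBL2_dF109, and KLK11 was called with neither (adjusted p = 0.289 and 0.136), while KLK1 (0.39, adjusted p = 0.0158) and KLK12 (0.40, adjusted p = 0.0433) were called higher with RUVBL2_dF109. Tested directly in CB-6644, KLK10 was higher than with the empty vector by 0.33 (SE 0.06, adjusted p = 0.000831) and 0.31 (SE 0.06, adjusted p = 0.00149), and KLK11 by 0.17 and 0.19, beside 18.9% and 20.9% of genes higher. In T3M-4 no member was called against DMSO with either variant, beside 50.0% and 37.6% of genes in either direction. Those comparisons depend on scaling: the median of all genes moved by 0.33 and 0.29, the higher share of calls went from 90.8% to 35.6% and from 91.1% to 35.0%, and KLK10 was -0.55 (adjusted p = 0.0148) and -0.42 (adjusted p = 0.044) when scaled. KLK8, KLK11 and KLK13 were also called lower in both only when scaled.

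Within CB-6644, T3M-4 with RUVBL1_A62T had 8 of 10 members above the empty vector (41.4% of genes higher) and with RUVBL2_dF109 7 of 10 (29.8%). KLK10 was 281, 234 and 284 TPM with RUVBL1_A62T (1.05, SE 0.15, adjusted p = 0.000497) and 288, 285 and 275 with RUVBL2_dF109 (1.15, SE 0.15, adjusted p = 0.0012). KLK6 was 52.0 to 60.1 and 47.3 to 51.6 TPM (1.78 and 1.57), although its DMSO levels already differed between vectors in the same direction. KLK7 was higher by 0.76 and 0.83, and KLK5 by 1.16 with RUVBL1_A62T. Their single DMSO libraries differed the same way, with KLK7 at 11.5 TPM with the empty vector, 18.9 with RUVBL1_A62T and 20.5 with RUVBL2_dF109, KLK5 at 0.367, 1.98 and 2.03, and KLK10 at the 235, 298 and 370 given above. KLK8, KLK11, KLK12 and KLK13, higher by 0.32 to 0.61, lost the call with both variants under median-of-ratios scaling. Epithelial markers moved as well: in AsPC-1, 4 of 5 fell in the empty vector and 4 and 5 of 5 were higher with the variants, and their part was not tested.

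**Figure D5:**
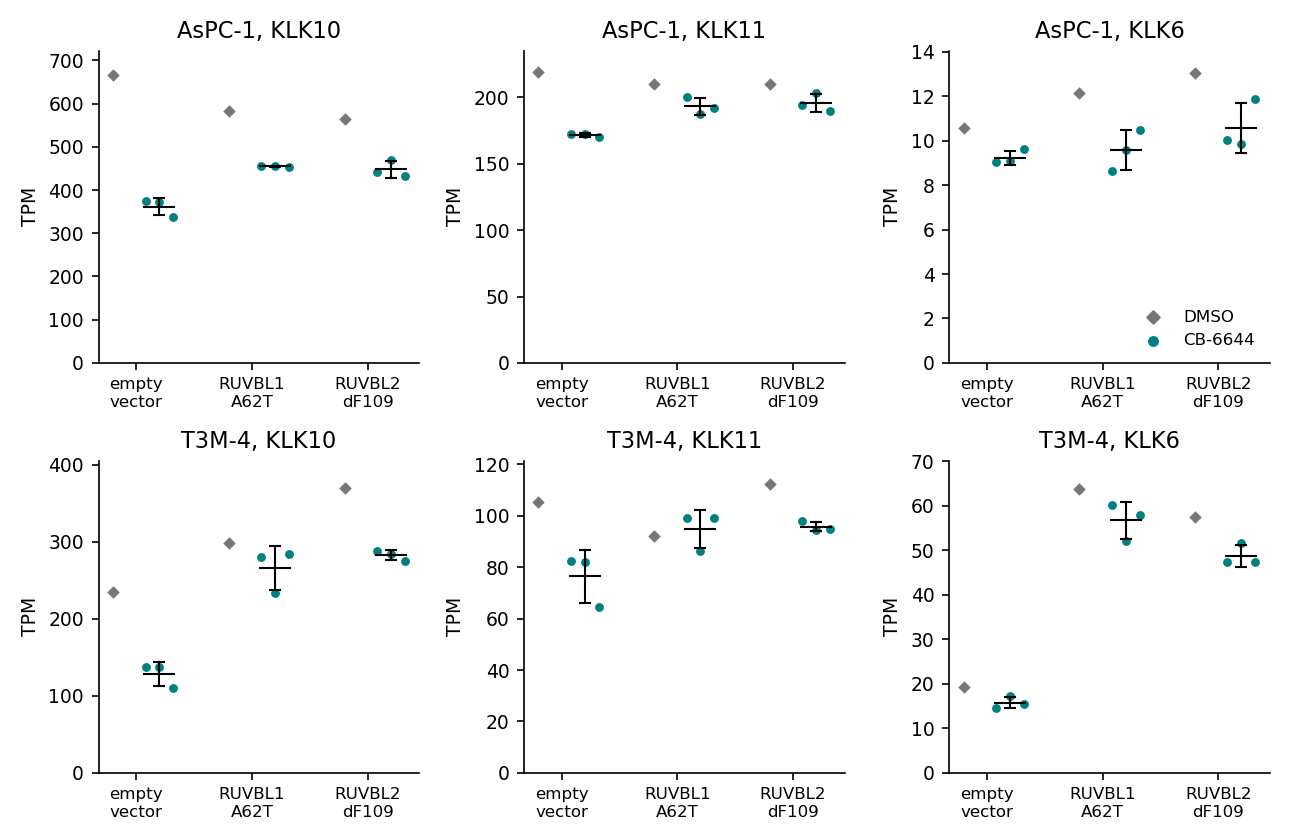
TPM of KLK10, KLK11 and KLK6 in AsPC-1 (top) and T3M-4 (bottom) by vector; grey diamonds are the single DMSO library of each vector, green circles the 3 CB-6644 libraries with mean and SD. In T3M-4, KLK10 in CB-6644 is 110 to 137 TPM with the empty vector and 234 to 288 with the variants, and KLK6 differs between vectors already in DMSO.

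Among the other lines, T84 was the one with appreciable members, and 4 of 6 fell with CB-6644 beside 24.2% of genes. KLK10 went from 122, 119, 118 and 121 TPM to 82.1, 77.5, 86.9 and 77.4 (-0.56, SE 0.05, adjusted p = 2.72e-08) and KLK6 from 22.5 to 24.5 TPM to 13.6 to 15.2 (-0.68, SE 0.06, adjusted p = 7.83e-08). KLK7 fell from 25.3 to 28.2 TPM to 17.8 to 20.7 (-0.43, adjusted p = 1.57e-05) and KLK5 by 0.69 (adjusted p = 0.000302). KLK11 was -0.10 (adjusted p = 0.366; -0.25, adjusted p = 0.0246, when scaled) and KLK1 -0.02. In A375 the 1 tested member, KLK6, rose from 1.14 to 1.44 TPM to 1.94 to 2.33 (0.47, adjusted p = 0.000257), beside 51.5% of genes higher. In RH30 it was KLK1, which rose by 0.84 (adjusted p = 0.00127) from 0.805 to 2.48 TPM to 2.31 to 3.90, beside 50.4% of genes higher. No member reached a mean of 1 TPM in H1048, where 77.9% of genes were called in either direction.

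Scaling by median of ratios, which removes a shift shared by most genes, moved the share of higher calls by over 10 percentage points in 30 of 46 comparisons. With sgKLF5 that share went from 66.0% to 50.2% in AsPC-1 experiment 1. It fell from 74.6% to 59.4% for SUIT-2, from 67.5% to 44.5% for T3M-4 experiment 2, and from 60.7% to 50.0% for BxPC-3 experiment 2. In AsPC-1 experiment 3 it went from 70.6% to 46.9% with sgRUVBL1 and from 74.5% to 46.2% with sgRUVBL2, and in T3M-4 from 72.1% to 46.6% with sgRUVBL2 and from 77.1% to 41.3% with sgCDK1. Of 122 member calls in 348 tests, 15 were lost, 33 were gained and 0 changed sign. The shift of the median of all genes ran from -0.22 in T3M-4 sgKLF5 experiment 1 to 0.33, and beside it KLK10 with sgKLF5 was called under both scalings in all 8 experiments.

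Other parts of the protease system were read from lists of 5 further KLK genes, 16 inhibitors, 12 activating or parallel proteases, 14 substrates or receptors and 14 neighbouring genes on 19q. Among the further KLK genes, KLK4, a protease of enamel and prostate, fell with sgKLF5 in CFPAC-1 (-0.76) and BxPC-3 experiment 1 (-0.91) and rose with sgCHD4 (1.42). KLK9 fell with sgKLF5 in T3M-4 experiment 2 (-0.63). Inhibitors had no common direction with sgKLF5: 3 of 7 fell and 0 rose in AsPC-1 experiment 3, 2 of 10 fell and 5 rose in T3M-4 experiment 2, and 2 of 10 fell and 2 rose in BxPC-3 experiment 2. In these 3 experiments 12.3%, 11.2% and 13.6% of all genes were called lower and 15.4%, 23.4% and 21.0% higher. WFDC2, of the whey acidic protein family, fell in AsPC-1 experiment 3 (65.1 to 29.8 TPM, -1.11) and rose in T3M-4 experiment 2 (148 to 598 TPM, 2.03) and BxPC-3 experiment 2 (149 to 341 TPM, 1.24). SPINK5, the skin inhibitor, fell in BxPC-3 experiment 2 from 41.3 to 15.4 TPM (-1.36). With sgCHD4, 7 of 7 tested inhibitors rose (median 1.16, beside -0.03 and 23.3% called higher over all genes), WFDC2 by 2.998.

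Of the proteases, 2 of 7 fell and 2 rose with sgKLF5 in AsPC-1 experiment 3, 1 of 9 fell and 7 rose in T3M-4 experiment 2, and 3 of 9 fell and 3 rose in BxPC-3 experiment 2. PLAT, tissue plasminogen activator, fell in AsPC-1 (638 to 192 TPM, -1.72) and rose in T3M-4 (181 to 569 TPM, 1.66). F2RL1, encoding PAR2, rose with sgKLF5 in AsPC-1 experiment 3 (0.45), T3M-4 experiment 2 (0.26) and BxPC-3 experiment 2 (0.76). FLG, a filament-binding skin protein, fell in T3M-4 experiment 2 (5.62 to 1.23 TPM, -1.50) and BxPC-3 experiment 2 (4.64 to 1.14 TPM, -1.40). Of the chromosomal neighbours outside the cluster, 0 of 3, 0 of 7 and 0 of 3 tested were called lower in the same 3 experiments, too few to be read against the 12.3%, 11.2% and 13.6% of all genes, and the single lower call in all 8 was C19orf48 in AsPC-1 experiment 1 (-0.36).

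Outside the family, the 5 genes whose log2 fold changes with sgKLF5 were nearest to those of KLK10 over 8 experiments, among 10597 genes tested in all, were SULF2 (root mean square difference 0.55), SYN3 (0.64), EPB41L1 (0.64), ALS2CL (0.68) and ITGB4 (0.68). Over the 9 lines, the 3 genes whose mean control level was most like that of KLK10, among 15723 genes, were CDA, KRT19 and MALL. The lines fall into 6 with KLK10 and 3 nearly without it, so a coefficient over all 9 mainly reflects that split. Within the 6 lines with KLK10, Pearson's r was 0.94 for CDA, 0.56 for KRT19 and 0.51 for MALL (n = 6 lines, as a description).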

How the data were processed

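Messenger RNA was sequenced by single-end poly-A libraries, and the authors deposited TPM per gene in 8 tables, made by kallisto pseudo-alignment to hg38 and tximport. The study names removal of low-abundance transcripts, at a limit not stated, with its differential expression step. Whether it touched the TPM is unclear. The deposited TPM keep no read counts, so no count model could be used and precision is judged from replicates alone. Groups came from the sample labels. From the deposited TPM, log2(TPM + 1) was fitted, 1 fit per line and experiment, by limma-trend (limma 3.58.1 under R 4.3.3), keeping genes that averaged 1 TPM or more, with adjustment over all of them. The fit was tested on simulated data for 5 comparisons; it recovered nearly all changed genes in 4, but few in T3M-4 sgKLF5 experiment 1, where a missing call says little. The members and lists were chosen with earlier results of these data known. All 10 members are named, and at most 4 genes per list were named, those with the largest called change without overlap. Alternatives were a pseudocount of 0.1, no filter, a filter at 5 TPM, median-of-ratios scaling, only the groups compared, a replicate block and leaving out each library; CB-6644 was also compared with the DMSO library of the same vector. Leaving sgKLF5 replicate 2 out of the T3M-4 sgRpa3 comparison, and which left-out libraries to name, were chosen after seeing the data. In 37 comparisons with shared replicate numbers, 23 with at least 3 pairs, same-numbered libraries correlated above 0.1 in every pair in 0, so the numbers were not taken as pairs.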

Additional observations from a re-analysis of the deposited data

Results flagged for a closer look

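Of 168 groups of 4 to 10 libraries tested per member, 5 held a library far from the others, and chance alone gives about 5% of groups. KLK8 was 16.4 TPM in AsPC-1 sgRosa replicate 4 of experiment 3, beside 7.72 to 8.89 in the other 3. KLK8 was 12.5 TPM in replicate 1 of the sgRosa libraries of the CHD4 experiment, beside 16.5 to 17.0. KLK6 was 3.85 TPM in BxPC-3 sgRosa replicate 4 of experiment 2, beside 0.346 to 0.576. KLK10 was 69.7 TPM in CFPAC-1 sgRosa replicate 2, beside 311 to 334, the level of the sgKLF5 libraries, and the values without it are given above. KLK1 was 6.12 TPM in T3M-4 sgRUVBL2 replicate 2, beside 4.92 to 5.09.

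The sgKLF5 effect differed between lines, by a test of the difference itself, in 10 member tests. Between T3M-4 and AsPC-1 the difference in log2 fold change was 1.09 for KLK6, -1.65 for KLK11 and -2.21 for KLK13. Between BxPC-3 and AsPC-1 it was -1.40 for KLK11, 1.07 for KLK12 and -1.38 for KLK13. KLK12 was at most 0.495 TPM in BxPC-3 controls and KLK13 at most 0.708 TPM in those of AsPC-1, so their differences against these lines are a description. Between T3M-4 and BxPC-3 it was 1.44 for KLK1, 0.77 for KLK7, -0.92 for KLK12 and -0.83 for KLK13. These pairs share the libraries of each line and are not independent of each other, and line and experiment cannot be told apart in them.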

How the results depend on the processing

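The number of member calls stayed within 1.5 times of that reported under most alternatives. In the lines outside the pancreas 6 calls became 13 without a filter on low values and 3 at a mean of 5 TPM. Under median-of-ratios scaling, RUVBL2 knockout went from 5 to 8 calls, CB-6644 with a resistance variant from 4 to 14, and variants against the empty vector from 19 to 11. Fitting only the groups compared gave 2 calls for the resistance variants, 11 instead of 17 for CDK1 and RPA3 knockout, and 5 instead of 11 for the empty vector. Leaving out 1 library gave 27 to 32 calls for KLF5, 11 to 15 for RUVBL1, 4 to 6 for RUVBL2, 13 to 17 for CDK1 and RPA3, 7 in every case for CHD4 and SERPINB5, 9 to 12 for the empty vector, 2 (without the AsPC-1 RUVBL2_dF109 DMSO library) to 8 (without the T3M-4 empty-vector DMSO library) for the variants, 16 to 21 between variants and empty vector, 6 in every case for the other lines, and 10 to 12 between lines; the cause was not tested. Against the DMSO library of the same vector, KLK5 in T3M-4 with the empty vector reversed to 0.0601. With a replicate block, KLF5 knockout gave 34 calls, RUVBL1 12, RUVBL2 5, CDK1 and RPA3 19, CHD4 and SERPINB5 7, variants against empty vector 20, the other lines 6 and the difference between lines 13. TPM without depth leave members under about 1 TPM undecided.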
